A study of Mus musculus with 5 samples.

Results

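The genes described are 10 members of the fibroblast growth factor (FGF) system that act while alveoli form: the ligand genes Fgf2, Fgf7, Fgf9, Fgf10 and Fgf18, the receptor kinase genes Fgfr1, Fgfr2, Fgfr3 and Fgfr4, and Fgfrl1, which encodes a receptor without a kinase domain. They were found by symbol, and all 10 were among the 23478 genes of the count table and the 15298 genes tested. RNA-Seq was performed on GFP-sorted cells from mouse lungs at postnatal day 6 (P6). All mice carried Gli1-CreERT2, a tamoxifen-dependent Cre expressed from Gli1, and the Rosa26-eGFP reporter, and every pup received 100 μg tamoxifen at P0 and at P1. The 2 control libraries came from mice with 1 floxed Igf1r allele and the 3 Igf1r-deleted libraries from mice with 2. By this design recombined control cells lack an Igf1r allele too, and the sort takes every cell type in which Gli1-CreERT2 acted. The mice were of mixed background and both sexes, and how many pups made up a library is not given in the sources used here.

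FGFs are secreted proteins that bind FGF receptors together with heparan sulfate, and the receptor kinases pass the signal through the adaptor FRS2 to the RAS–ERK and PI3K–AKT pathways. In the lung, FGF10 and FGF7 are made by mesenchymal cells and signal to the FGFR2 of the epithelium. FGF9 comes from mesothelium and epithelium and signals to the mesenchyme, FGF18 is associated with alveolar fibroblasts and elastin formation after birth, and mice that lack both FGFR3 and FGFR4 fail to form normal alveoli.

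Library totals were 35116766 to 37597857 counts. Values are given as CPM, read counts scaled to library size with TMM factors, with control replicates 1 and 2 first and Igf1r-deleted replicates 1, 2 and 3 after them. Fold changes are log2 of Igf1r-deleted over control. Igf1r, the targeted gene, had control levels of 324 and 324 CPM and Igf1r-deleted levels of 140, 177 and 194 CPM. Its groups did not overlap. Its log2 fold change was −0.93 (SE 0.14), with an adjusted p of 0.354 by edgeR's quasi-likelihood test (Benjamini-Hochberg) and of 1.06e-05 by DESeq2. The labelled cell type was fibroblast, and all 15 myofibroblast and 11 lipofibroblast and matrix fibroblast markers examined were detected. Epithelial, endothelial and hematopoietic markers were detected too, with summed levels of 578 to 1269, 320 to 886 and 222 to 660 CPM.

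Of the 10 FGF genes, 6 had a positive fold change in the Igf1r-deleted libraries and 4 a negative one, and none passed the test over all genes. Fgf18 had the largest difference among the 10, 1.93-fold higher. Fgfr2 was 1.19-fold higher, while Fgfr3 and Fgfr4 were lower by 0.19 and 0.22 on the log2 scale. No member had an adjusted p under 0.05 with edgeR's quasi-likelihood test, DESeq2 or limma voom, against 0% of all genes with edgeR and 1.31% with DESeq2. Adjusted p-values of the members ran from 0.364 to 0.887 by edgeR's quasi-likelihood test. They measure the spread between these libraries only, which may in part be technical. With edgeR's unadjusted p under 0.05 there were 2 members, Fgf18 and Fgfr2, against 12.4% of all genes. There was none without Igf1r-deleted replicate 2, where 367 of all 15100 genes tested were higher and 626 lower at that threshold. There was also none without Igf1r-deleted replicate 3, where 480 of 15153 were higher and 633 lower. The genotypes did not overlap for 5 members, Fgf2, Fgfr2 and Fgfrl1 on the higher side and Fgfr3 and Fgfr4 on the lower side, against 31.0% of all genes (16.0% higher and 14.9% lower). The median absolute log2 fold change was 0.22 for the members and 0.19 for all genes tested.

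**Figure D1:**
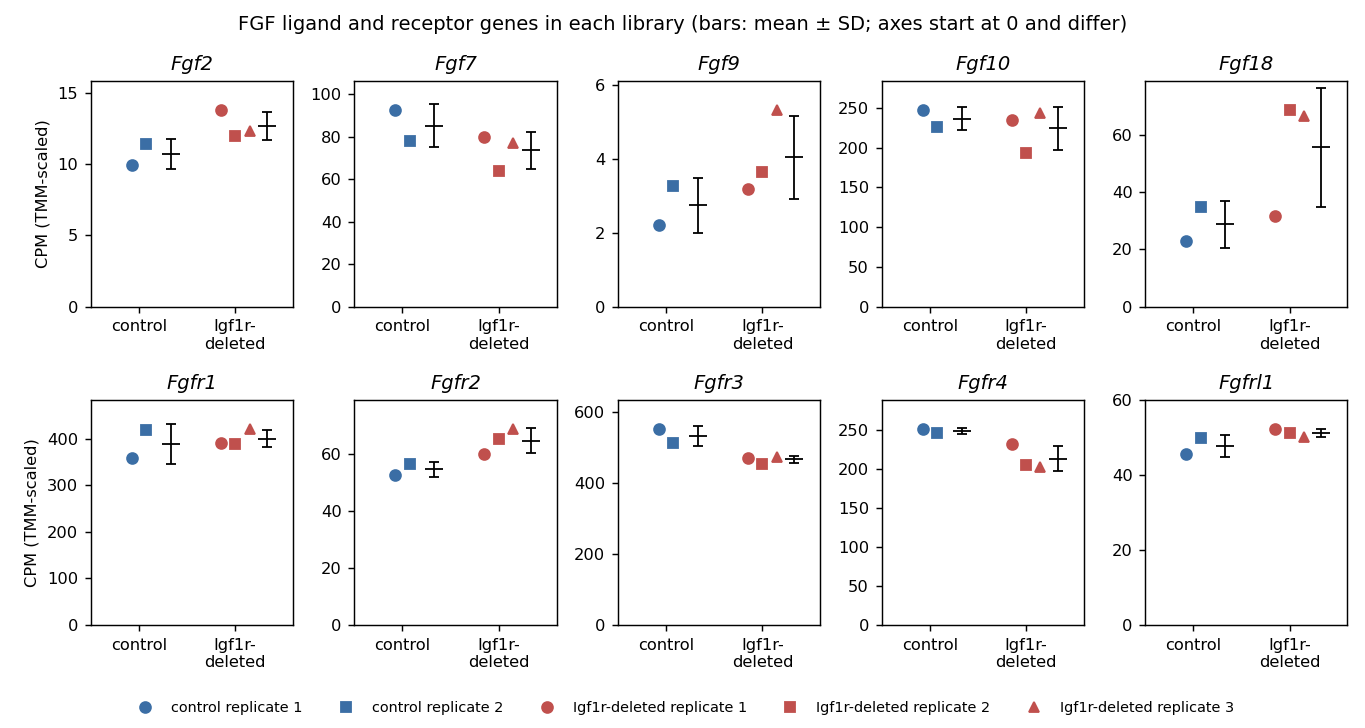
Level of each of the 10 FGF genes in CPM (linear axis from 0), with a point for each of the 2 control and 3 Igf1r-deleted libraries, and the mean with SD of each genotype. Fgf18 shows Igf1r-deleted replicates 2 and 3 at 68.5 and 66.5 CPM, above the 3 remaining libraries at 22.9 to 34.6 CPM, while the points of Fgfr2, Fgfr3 and Fgfr4 are separated by genotype over smaller distances.

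Fgf18, the ligand associated with postnatal alveolar fibroblasts, lies on the minus strand of chromosome 11 (mm10, chr11:33117430-33147400). It stood at 22.9 and 34.6 CPM in control mice and at 31.7, 68.5 and 66.5 CPM in Igf1r-deleted mice. The groups overlapped, since Igf1r-deleted replicate 1 was below control replicate 2, and the other Igf1r-deleted libraries were well above both controls. The log2 fold change was 0.95 (SE 0.34, 95% confidence interval 0.15 to 1.75), with an adjusted p of 0.364 by edgeR's quasi-likelihood test (Benjamini-Hochberg) and of 0.116 by DESeq2. With a library left out, this value became 0.68 without control replicate 1, 1.27 without control replicate 2, 1.23 without Igf1r-deleted replicate 1, 0.77 without Igf1r-deleted replicate 2 and 0.80 without Igf1r-deleted replicate 3. The adjusted p by edgeR's quasi-likelihood test was 0.0813 without Igf1r-deleted replicate 1 and lay between 0.0579 and 0.9996 over all alternatives.

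The summed myofibroblast markers had the same library order as Fgf18. Among the 15 tested, 11 were higher and 4 lower with Igf1r deleted, and their median log2 fold change was 0.35 against 0.01 for all genes, and none was at 0. Their summed level amounted to 4944 and 5308 CPM for the controls, against 5216, 6188 and 6005 CPM with Igf1r deleted. From the lowest to the highest library, this sum and Fgf18 ran through control replicate 1, Igf1r-deleted replicate 1, control replicate 2, Igf1r-deleted replicate 3 and Igf1r-deleted replicate 2. Singly, 5 of the 15 markers followed this order, as did 2.31% of all genes tested. Acta2, which encodes smooth muscle actin, was at 407, 655, 764, 1067 and 907 CPM (log2 fold change 0.78, SE 0.23). Wnt5a, a noncanonical Wnt ligand, was at 360, 402, 426, 545 and 653 CPM (log2 fold change 0.51, SE 0.18). Both were higher in all 3 Igf1r-deleted libraries than in either control, and control replicate 1 was the lowest library for both. Their adjusted p-values by edgeR's quasi-likelihood test were 0.354 and 0.364, and those by DESeq2 were 0.0465 and 0.156. Enpp2, which encodes the enzyme that makes lysophosphatidic acid, measured 66.3 and 49.6 CPM in control libraries and 39.4, 32.1 and 41.6 CPM after Igf1r deletion, below both controls (log2 fold change −0.62, SE 0.16). Without control replicate 1 the median log2 fold change of the myofibroblast markers was 0.14. The part of these cells in the Fgf18 result was not tested, and in bulk RNA more cells of a type and more RNA per cell cannot be told apart.

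**Figure D2:**
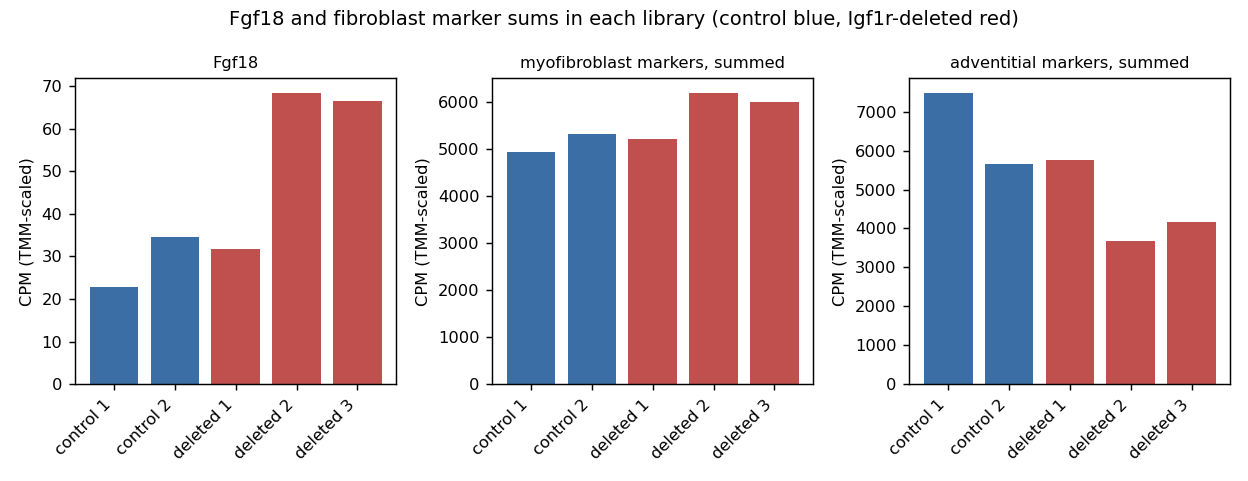
CPM in each of the 5 libraries (bars from 0) for Fgf18, for the sum of 15 myofibroblast markers and for the sum of 12 adventitial fibroblast markers, controls in blue and Igf1r-deleted libraries in red. The first and second panels share their library order, with Igf1r-deleted replicates 2 and 3 highest, and the same libraries are lowest in the adventitial sum, at 3677 and 4159 CPM.

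The upstream sequences of 3 members are shown: Fgf18, with the largest difference, Fgfr2, the other member with an unadjusted p under 0.05, and Fgfr4, the receptor with the lowest fold change. Each window runs 5′ to 3′ on the strand of the gene, from 250 bases before to 50 bases after the RefSeq start (GRCm38.p6), at chr11:33147351-33147650 on the minus strand, chr7:130266759-130267058 on the minus strand and chr13:55152568-55152867 on the plus strand. Capitals mark matches, on either strand, to 6 motifs: the TATA box (TATAAA), the GC box (GGGCGG), the ETS core (CGGAAG), the GLI core (ACCACCC), the FOXO site (TGTTTAC) and the TEAD core (GGAATG). No motif contains another.
Fgf18: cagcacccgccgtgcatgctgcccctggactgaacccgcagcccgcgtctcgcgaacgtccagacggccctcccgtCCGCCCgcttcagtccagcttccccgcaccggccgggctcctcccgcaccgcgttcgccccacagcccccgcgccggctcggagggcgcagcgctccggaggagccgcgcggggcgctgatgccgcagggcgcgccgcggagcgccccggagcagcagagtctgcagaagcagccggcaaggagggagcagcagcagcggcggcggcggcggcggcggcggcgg
Fgfr2: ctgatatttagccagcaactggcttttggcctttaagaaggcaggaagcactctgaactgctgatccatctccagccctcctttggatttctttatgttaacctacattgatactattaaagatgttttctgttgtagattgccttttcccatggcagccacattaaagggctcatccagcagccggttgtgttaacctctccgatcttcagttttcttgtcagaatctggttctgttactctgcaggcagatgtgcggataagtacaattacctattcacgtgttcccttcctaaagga
Fgfr4: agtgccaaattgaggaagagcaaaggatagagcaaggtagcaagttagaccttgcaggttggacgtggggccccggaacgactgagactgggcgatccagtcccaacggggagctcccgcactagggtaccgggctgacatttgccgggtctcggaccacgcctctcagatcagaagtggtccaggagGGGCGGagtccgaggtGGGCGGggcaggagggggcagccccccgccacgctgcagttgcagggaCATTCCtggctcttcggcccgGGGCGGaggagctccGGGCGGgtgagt

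The Fgf18 window was the richest of the 3 in CpG, with 47 CpG and 78.7% GC. Fgfr4 had 20 CpG and 65.3% GC, and Fgfr2 had 4 CpG and 43.7% GC. The start used for Fgfr2 lies inside the annotated span of the gene (chr7:130162451-133123350, minus strand) and not at the 5′ end of that span. Exons of Ctbp2, on the same strand, overlap this annotation, and the far end of the span need not be a start used in these cells. The Fgfr2 values describe the RefSeq start only. The medians over all 32851 windows were 7 CpG and 52.7% GC. Windows were found for 9 of the 10 members, and a GC box was present for 6 of these, Fgf2, Fgf10, Fgf18, Fgfr3, Fgfr4 and Fgfrl1, against 35.7% of all windows. The GLI core, in 4.61% of all windows, and the TATA box, in 13.6%, were in no member's window. The FOXO site, in 3.65% of all windows, was found for Fgf10, the TEAD core, in 14.7%, for Fgfr4, and the ETS core, in 16.9%, for Fgfrl1. These matches are descriptions of letters and not sites.

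Fgf10 and Fgf7 are mesenchymal ligands of the epithelial FGFR2. Fgf10 (chr13:118669791-118792115, plus strand) had control levels of 247 and 226 CPM and Igf1r-deleted levels of 235, 193 and 244 CPM. The groups overlapped, with Igf1r-deleted replicate 2 the lowest library and control replicate 1 the highest. It differed by a log2 fold change of −0.08 (SE 0.13, 95% confidence interval −0.38 to 0.22), and it turned to 0.014 without Igf1r-deleted replicate 2. Fgf7 (chr2:126034658-126091185, plus strand) stood at 92.3 and 78.1 CPM in control mice and at 80.0, 63.6 and 76.9 CPM in Igf1r-deleted mice. Exons of Gm16263 on the opposite strand cover 2.67% of Fgf10 and no other gene's exons cover Fgf7. In Fgf7, again, Igf1r-deleted replicate 2 was lowest and control replicate 1 highest, and Igf1r-deleted replicate 1 was above control replicate 2. The log2 fold change of Fgf7 was −0.21 (SE 0.13, 95% confidence interval −0.53 to 0.10). Adjusted p-values by edgeR's quasi-likelihood test were 0.815 for Fgf10 and 0.520 for Fgf7.

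Fgf2 and Fgf9 were the ligands with the lowest level per exon length. Fgf2 (chr3:37348346-37410108, plus strand), which encodes an FGF without a classical signal peptide, measured 9.94 and 11.4 CPM in control libraries and 13.8, 12.0 and 12.3 CPM after Igf1r deletion. All Igf1r-deleted libraries were above both controls, by a small margin for replicates 2 and 3. The log2 fold change was 0.25 (SE 0.15, 95% confidence interval −0.10 to 0.59), with an adjusted p of 0.506 by edgeR's quasi-likelihood test. Exons of Nudt6, on the opposite strand, and Gm43439 cover 13.2% of the Fgf2 exon sequence, so reads of these genes may not be separable. Fgf9 (chr14:58070547-58112720, plus strand) was counted 77 and 120 times in the controls and 112, 145 and 191 times in the Igf1r-deleted libraries, which corresponds to 2.22 and 3.27 and to 3.17, 3.65 and 5.32 CPM. The groups overlapped, with control replicate 1 lowest and Igf1r-deleted replicate 3 highest. Its log2 fold change was 0.56 (SE 0.32, 95% confidence interval −0.20 to 1.31), with an adjusted p of 0.493 by edgeR's quasi-likelihood test, and counting error alone was 11.4% at the lowest count. The log2 fold change of Fgf9 was 0.30 without control replicate 1, 0.31 without Igf1r-deleted replicate 3 and 0.86 without control replicate 2. The 6 mesothelial markers summed to 444 and 450 CPM in the controls and to 385, 341 and 454 CPM in the Igf1r-deleted libraries. Igf1r-deleted replicate 3 was highest in this sum, close to both controls, and had the lowest epithelial sum, at 578 CPM. Mean log2 CPM over the mesothelial markers was 5.56 and 5.39 in the controls and 5.25, 5.06 and 5.42 in the Igf1r-deleted libraries. By that mean control replicate 1 was highest. The part of mesothelial and epithelial cells in the Fgf9 value was not tested.

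Among the receptors, Fgfr2 had a positive fold change and Fgfr3 and Fgfr4 negative ones, each without overlap between genotypes. Fgfr2 (chr7:130162451-133123350, minus strand), the receptor of FGF7 and FGF10 in its epithelial isoform, had control levels of 52.8 and 56.5 CPM and Igf1r-deleted levels of 60.2, 65.2 and 68.9 CPM. Every Igf1r-deleted library was above both controls. For Fgfr2 the log2 fold change was 0.24 (SE 0.10, 95% confidence interval 0.0040 to 0.49), with an adjusted p of 0.398 by edgeR's quasi-likelihood test (Benjamini-Hochberg). Of the 16 epithelial markers 14 were lower, with a median log2 fold change of −0.33. Igf1r-deleted replicate 3, with the highest Fgfr2, had the lowest epithelial sum. The part of epithelial cells in the Fgfr2 value was not tested. The epithelial sum amounted to 1266 and 1181 CPM for the controls, against 874, 1269 and 578 CPM with Igf1r deleted. Exons of Ctbp2 make up 3.04% of the annotated Fgfr2 exon sequence. Gene counts do not separate the epithelial from the mesenchymal isoform.

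Fgfr3 (chr5:33721674-33737068, plus strand) was the receptor with the highest level per exon length. It stood at 552 and 513 CPM in control mice and at 471, 454 and 474 CPM in Igf1r-deleted mice. All Igf1r-deleted libraries were below both controls and lay close together. Its log2 fold change was −0.19 (SE 0.10, 95% confidence interval −0.43 to 0.045), with an adjusted p of 0.465 by edgeR's quasi-likelihood test. Exons of G630022F23Rik on the opposite strand cover 13.9% of its exon sequence, and 14.6% of its 32-base words occur in other genes, Fgfr3-ps among them. Fgfr4 (chr13:55152640-55168759, plus strand), which shares no exon with another gene, measured 252 and 246 CPM in control libraries and 232, 205 and 203 CPM after Igf1r deletion. Here too the groups did not overlap, with Igf1r-deleted replicate 1 nearest the controls. The log2 fold change was −0.22 (SE 0.10, 95% confidence interval −0.46 to 0.019), with an adjusted p of 0.419 by edgeR's quasi-likelihood test.

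The summed markers of lipofibroblasts and matrix fibroblasts were lower in every Igf1r-deleted library than in either control, while their mean log2 CPM overlapped, as did the sums of adventitial fibroblast markers. The sums were 12640 and 12430 against 11580, 10330 and 11430 CPM for the former, with 7 of 11 genes lower, and 7481 and 5654 against 5760, 3677 and 4159 CPM for the latter, with 9 of 12 lower. The median log2 fold change of the lipofibroblast and matrix fibroblast markers was −0.09, and of the 11 genes 2 were lower and 1 was higher without overlap. Mean log2 CPM over these markers was 8.86 and 8.81 in control libraries and 8.68, 8.61 and 8.82 after Igf1r deletion. Tcf21, a transcription factor of lipofibroblasts, had control levels of 1662 and 1168 CPM and Igf1r-deleted levels of 1003, 902 and 963 CPM (log2 fold change −0.57, SE 0.16). G0s2, an inhibitor of triglyceride breakdown, stood at 336 and 285 CPM in control mice and at 235, 197 and 214 CPM in Igf1r-deleted mice (log2 fold change −0.53, SE 0.12). Slc7a10, an amino acid transporter, lay on the higher side, with control levels of 27.4 and 37.2 CPM and Igf1r-deleted levels of 40.1, 47.2 and 50.2 CPM, without overlap (log2 fold change 0.51, SE 0.16). Wnt2, Ces1d and Lpl had positive fold changes too, with overlap. No gene of either list was at 0. The hematopoietic markers were lower in 12 of 12 genes, with sums of 660 and 438 against 513, 358 and 222 CPM. The part of these cells in the receptor values was not tested.

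Fgfr1 and Fgfrl1 had the smallest fold changes among the receptors. Fgfr1 (chr8:25513654-25575718, plus strand), an FGF receptor kinase of mesenchyme, stood at 357 and 418 CPM in control mice and at 390, 388 and 421 CPM in Igf1r-deleted mice. Its groups overlapped, with Igf1r-deleted replicates 1 and 2 between the controls, and exons of Gm16159 on the opposite strand cover 1.66% of its exon sequence. Its log2 fold change was 0.043 (SE 0.11, 95% confidence interval −0.22 to 0.31), and it turned to −0.072 without control replicate 1. Fgfrl1 (chr5:108692382-108706924, plus strand), the receptor without a kinase, measured 45.8 and 49.99 CPM in control libraries and 52.4, 51.2 and 50.3 CPM after Igf1r deletion. Igf1r-deleted replicate 3 was barely above control replicate 2, and the groups overlapped with DESeq2 size factors or upper-quartile factors. Its log2 fold change was 0.10 (SE 0.094, 95% confidence interval −0.12 to 0.32). Adjusted p-values by edgeR's quasi-likelihood test were 0.887 for Fgfr1 and 0.679 for Fgfrl1.

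**Figure D3:**
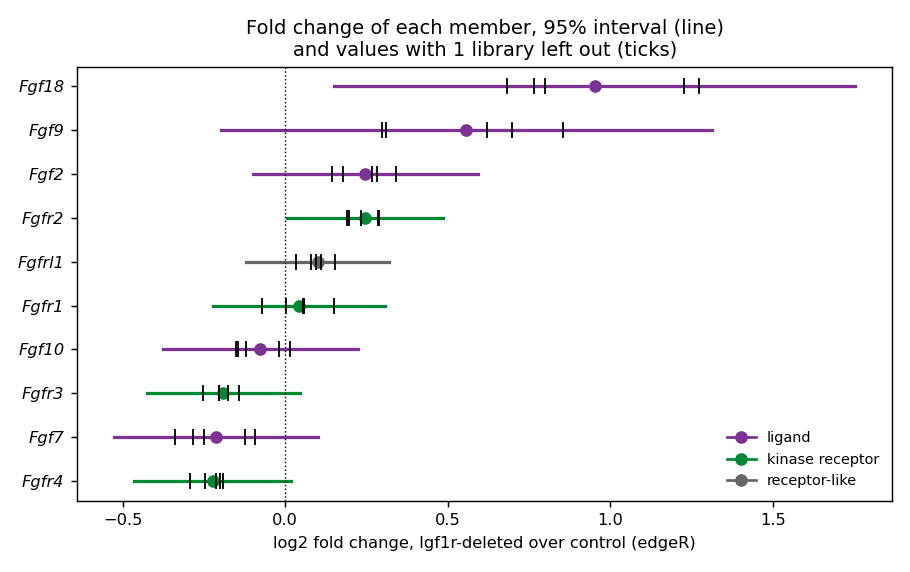
Log2 fold change (Igf1r-deleted over control) of each member on a linear axis, with a point for the edgeR estimate, a line for its 95% confidence interval and ticks for the estimates with 1 library left out, coloured by role. The intervals of 8 of the 10 members hold 0, and those of Fgf18 and Fgfr2 begin at 0.15 and 0.0040.

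Levels of the genes were compared after division by exon length (CPM per kilobase of exon). The length takes all annotated exons of a gene together and may differ from that of its transcripts in these cells, so the order depends on it. On this scale Fgfr3 was highest with a mean of 68.8 over the 5 libraries, followed by Fgfr4 at 64.3, Fgf10 at 49.8, Fgfr1 at 40.0, Fgf18 at 37.8, Fgf7 at 24.1, Fgfrl1 at 17.9, Fgfr2 at 5.88, Fgf2 at 1.75 and Fgf9 at 0.76. Ranges over libraries overlapped between Fgfr3 and Fgfr4, between Fgf10 and Fgfr1, between Fgfr1 and Fgf18 and between Fgf18 and Fgf7, and those of the other neighbours in this order did not. Fgfr3 and Fgfr4 stood at the 96.3 and 96.0 percentiles of the tested genes and Fgfr2 at the 60.1 percentile. Fgf10 was the highest ligand per kilobase in the controls, at 51.4 ± 3.18 (SD, n = 2), and Fgf18 was at 24.2 ± 6.97 (SD, n = 2). In the Igf1r-deleted libraries Fgf10 was at 48.7 ± 5.98 and Fgf18 at 46.8 ± 17.4 (SD, n = 3). Fgf18 exceeded Fgf10 per kilobase in Igf1r-deleted replicates 2 and 3, and in no other library. In CPM without this division Fgf10 exceeded Fgf18 in every library.

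**Figure D4:**
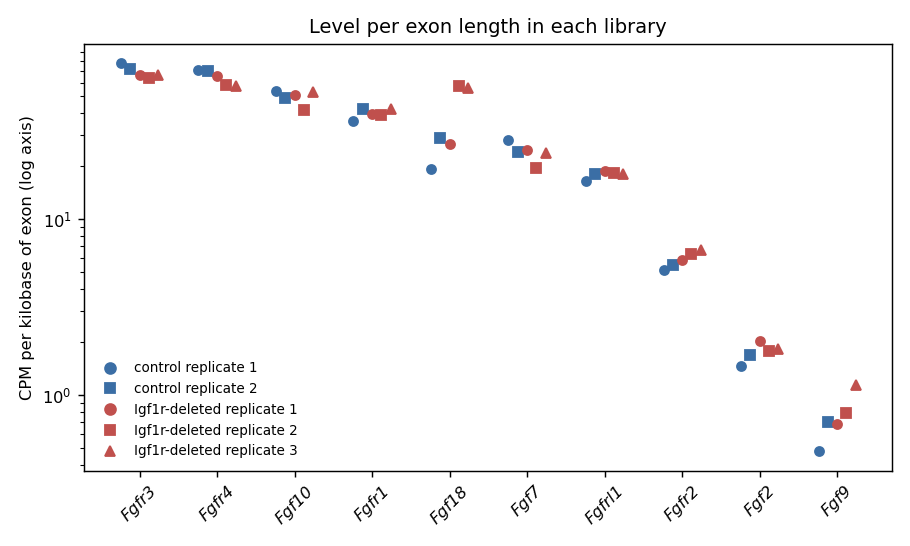
CPM per kilobase of exon on a log axis for each of the 10 members, ordered by mean, with a symbol for each library, controls in blue and Igf1r-deleted libraries in red. Fgfr3 and Fgfr4 are at the top and Fgf9 is lowest with a mean of 0.76, and the 5 libraries of Fgf18 spread from 19.3 to 57.7.

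The make-up of the ligand and receptor mRNA was compared as shares, which do not depend on library scaling. Fgf18 made up 18.7% and 27.8% of the 5 ligands per kilobase in the controls and 25.4%, 47.4% and 41.3% in the Igf1r-deleted libraries. The means were 23.2% ± 6.48 (SD, n = 2) and 38.0% ± 11.3 (SD, n = 3), and the groups overlapped (exact permutation test, two-sided, p = 0.3, where the smallest p for these 5 libraries is 0.1). Fgf10 went from a mean of 49.4% to 40.7% and Fgf7 from 25.2% to 19.0%, each with an exact permutation p of 0.3. In CPM without exon length Fgf7 went from 23.4% to 19.9%, without overlap (exact permutation p = 0.2), and the other ligands overlapped. Fgf2 and Fgf9 made up under 2% of the ligands in every library.

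Fgfr2 was a small share of the receptor kinases, at 2.70% and 2.90% in the controls and at 3.30%, 3.78% and 3.86% in the Igf1r-deleted libraries, without overlap (exact permutation p = 0.2). Fgfr1 had mean shares of 20.8% and 23.5%, Fgfr3 39.3% and 37.9%, and Fgfr4 37.1% and 35.0% in control and Igf1r-deleted libraries (exact permutation p of 0.3, 0.4 and 0.3). In CPM without exon length the mean share of Fgfr3 was 43.5% and 40.8%, without overlap (exact permutation p = 0.1). Fgfr2 did not overlap there either, at 4.5% and 5.7% (exact permutation p = 0.1), while Fgfr1 and Fgfr4 overlapped. Fgfr3 and Fgfr4 together held most of the receptor kinase mRNA per kilobase in every library. The summed receptor kinases were 189 and 189 CPM per kilobase in the controls and 177, 167 and 173 in the Igf1r-deleted libraries. The summed ligands were 103 and 105 against 105, 122 and 136.

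Library replicates contributed unequally to these differences. Control replicate 1 was farther from the Igf1r-deleted mean than control replicate 2 for 10 of the 10 members, and the same held for 66.7% of all genes tested. Igf1r-deleted replicate 1 was the library of its genotype nearest the controls for 6 of the members and for 46.9% of all genes. Without that library 3 members had an unadjusted p under 0.05 by edgeR's quasi-likelihood test, Fgf18, Fgfr2 and Fgfr4, against 21.0% of all genes, and none had an adjusted p under 0.05, against 0.0330% of all genes.

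The FGF target and feedback genes, which are induced by ERK and in part restrain it, were examined next. Of 13 tested, 7 were higher and 6 lower, with a median log2 fold change of 0.10. With an unadjusted p under 0.05 there was 1 on the higher side and 3 on the lower side, against 5.65% and 6.75% of all genes. Dusp5, an ERK phosphatase of the nucleus, had control levels of 29.4 and 23.0 CPM and Igf1r-deleted levels of 17.6, 14.7 and 17.7 CPM (log2 fold change −0.65, SE 0.15). The groups did not overlap, and Dusp5 was the only gene of the 6 pathway lists called by DESeq2, with an adjusted p of 0.0327 against 0.354 by edgeR's quasi-likelihood test. Spry4 and Spry1 encode Sprouty inhibitors of receptor kinase signalling and had fold changes of opposite sign. Spry4 stood at 442 and 423 CPM in control mice and at 348, 336 and 370 CPM in Igf1r-deleted mice (log2 fold change −0.30, SE 0.10). Spry1 measured 384 and 385 CPM in control libraries and 431, 500 and 585 CPM after Igf1r deletion (log2 fold change 0.39, SE 0.14). Neither gene's genotypes overlapped, and their adjusted p-values by edgeR's quasi-likelihood test were 0.354 and 0.367. Dusp6, a cytoplasmic ERK phosphatase and the remaining gene of the 3 on the lower side, named after its values were seen, stood at 261 and 234 CPM in control mice and at 218, 205 and 170 CPM in Igf1r-deleted mice (log2 fold change −0.33). Etv4, also named after its values were seen, had the largest fold change of the list, on the higher side (log2 fold change 1.12, SE 0.49). It measured 3.63 and 12.93 CPM in control libraries and 12.75, 22.43 and 18.9 CPM after Igf1r deletion, with overlap. Its unadjusted p by edgeR's quasi-likelihood test was 0.055.

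The transducers downstream of the receptors had small fold changes. Of 19 tested, 11 were higher and 8 lower, and none had an unadjusted p under 0.05. Their median log2 fold change was 0.02. Cbl, a ubiquitin ligase that acts on activated receptor kinases, had control levels of 30.3 and 32.6 CPM and Igf1r-deleted levels of 31.3, 28.4 and 26.1 CPM, with overlap (log2 fold change −0.14, SE 0.11). Grb2, the adaptor that links FRS2 to RAS activation, stood at 117 and 110 CPM in control mice and at 108, 105 and 97.8 CPM in Igf1r-deleted mice, without overlap (log2 fold change −0.13, SE 0.10). Ptpn11, the phosphatase SHP2 of the same complex, measured 180 and 202 CPM in control libraries and 208, 203 and 197 CPM after Igf1r deletion, with overlap.

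**Figure D5:**
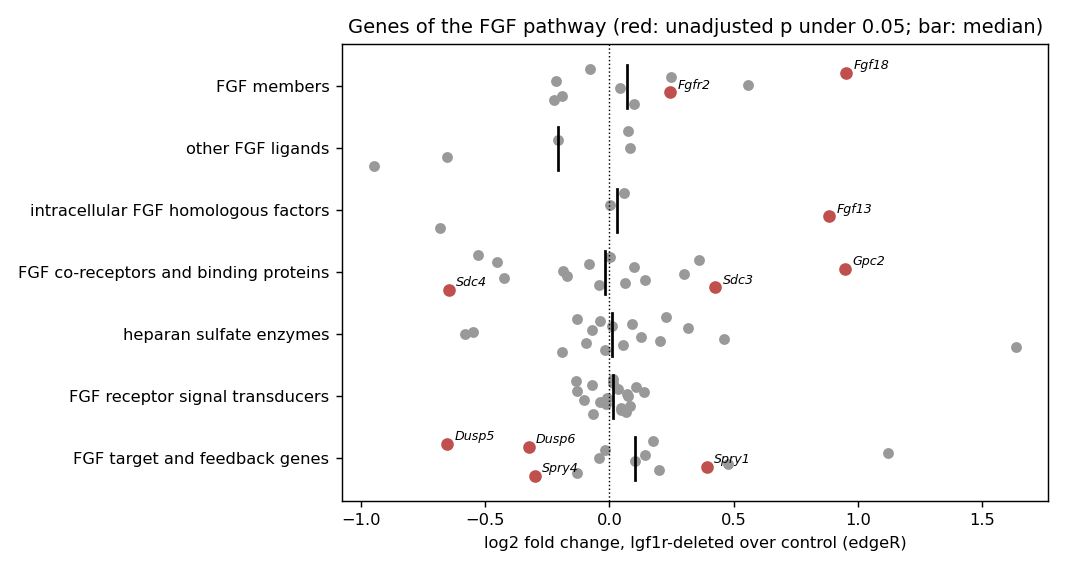
Log2 fold change (Igf1r-deleted over control) of the FGF members and of each tested gene in 6 lists of the FGF pathway, with red points for an unadjusted p under 0.05 in edgeR and a bar for the median of each list. The signal transducers lie around a median of 0.02 with no red point, and among the target and feedback genes Dusp5, Dusp6 and Spry4 lie on the lower side and Spry1 on the higher side.

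Among 16 tested co-receptors and binding proteins, 8 were higher and 8 lower, with a median log2 fold change of −0.02. At an unadjusted p under 0.05 there were 2 on the higher side and 1 on the lower side, against 5.65% and 6.75% of all genes. Sdc3, a syndecan, had control levels of 110 and 137 CPM and Igf1r-deleted levels of 159, 189 and 151 CPM (log2 fold change 0.43, SE 0.14). Gpc2, a glypican, stood at 3.60 and 6.39 CPM in control mice and at 6.40, 11.8 and 10.7 CPM in Igf1r-deleted mice (log2 fold change 0.95, SE 0.34). Neither overlapped, although Igf1r-deleted replicate 1 was nearly level with control replicate 2 for Gpc2. Sdc4, another syndecan, measured 268 and 165 CPM in control libraries and 173, 117 and 125 CPM after Igf1r deletion, and its groups overlapped (log2 fold change −0.65, SE 0.24). Gpc3, a glypican with the highest CPM of the list, had control levels of 2331 and 2200 CPM and Igf1r-deleted levels of 2338, 1702 and 1934 CPM, also with overlap.

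Most of the remaining FGF ligand genes were scarce in these cells. Of 13 listed, 5 passed the count filter and Fgf4, Fgf6, Fgf15 and Fgf20 had no count in any library. Fgf1, with the highest CPM among them, stood at 17.9 and 19.6 CPM in control mice and at 18.9, 22.0 and 18.4 CPM in Igf1r-deleted mice. In every library Fgf1 was above the members Fgf2 and Fgf9 in CPM. Fgf23, the hormone of phosphate balance, varied within genotypes, at 6.11 and 1.66 CPM in the controls and at 5.44, 0.70 and 1.28 CPM in the Igf1r-deleted libraries. Fgf5 measured 0.60 and 1.20 CPM in control libraries and 0.71, 0.20 and 0.50 CPM after Igf1r deletion. None of the 5 had an unadjusted p under 0.05. Of the 4 intracellular FGF homologous factors, which are not secreted and bind sodium channels, Fgf13 had control levels of 1.04 and 1.12 CPM and Igf1r-deleted levels of 1.87, 2.21 and 1.89 CPM. Its genotypes did not overlap (log2 fold change 0.88, SE 0.32), with an adjusted p of 0.364 by edgeR's quasi-likelihood test. Fgf12, with the highest CPM of the 4, was at 15.0 and 25.7 CPM in the controls, and the Igf1r-deleted libraries lay between these values.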

How the data were processed

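The deposited values are raw counts per gene in 5 libraries, which the authors made by trimming (Trim Galore), Bowtie2 alignment against mm10 and counting in GenomicAlignments. Versions, gene annotation and use of strand are not given in the sources used here. Bowtie2 does not split reads over introns, which may lower genes with many short exons, and its effect was not tested.

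In R 4.3.3, the two-sided quasi-likelihood F test of edgeR 4.0.16, which uses limma 3.58.1, was fitted to the counts after filterByExpr, with genotype as the only term and TMM factors of 0.961 to 1.06. P-values were adjusted by Benjamini-Hochberg over 15298 genes. DESeq2 1.42.0, limma voom, other scalings and filters, a replicate block and each library left out were alternatives. Shares were compared with exact permutation tests over the libraries. Exon lengths and overlaps came from GENCODE M21, matched by symbol (22114 directly, 1010 by an older symbol, 354 unmatched). Libraries of a genotype differed beyond counting noise (chi-square of 23.2 to 50.7 per degree of freedom), and each was counted as a replicate.

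The members and gene lists were chosen with earlier results of these data known. Named genes are the members, Igf1r, the 3 smallest p-values and the highest CPM of each pathway list, and genes of the marker lists by the same p. The values of 1 gene that this rule names are not reported here. Lists were described by counts and medians, with no set test.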

Additional observations from a re-analysis of the deposited data

How the results depend on the processing

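Over 14 alternatives for each of the 10 members, 138 of 140 log2 fold changes kept their direction and their side of the adjusted threshold. The other 2 changed sign: Fgf10 was at 0.014 without Igf1r-deleted replicate 2, in a range of −0.15 to 0.014 over libraries left out, and Fgfr1 at −0.072 without control replicate 1, in a range of −0.072 to 0.15. No member was called in any alternative. Over all genes, edgeR's quasi-likelihood test called 0 genes, with 1897 at an unadjusted p under 0.05, while DESeq2 called 200 and limma voom 0. With 1 library left out the count was 0 to 45, with 45 when control replicate 2 was dropped, 5 when Igf1r-deleted replicate 1 was dropped and 4 when Igf1r-deleted replicate 2 was dropped. With the replicate block 136 genes were called. In that fit 1 member, Fgf18, had an unadjusted p under 0.05, against 933 genes higher and 1123 lower of the 15298 tested. The replicate numbers share 2 pairs, whose deviations correlated at 0.208 and 0.121, and no label says that they mark litters or batches. Pairs with unlike numbers ran from −0.208 to 0.119, the latter for control replicate 2 and Igf1r-deleted replicate 3. With 2 controls, the deviations of control replicate 2 are those of control replicate 1 with the sign reversed. The unlike pairs are therefore no separate comparison for whether the numbers mark pairs. Members with an unadjusted p under 0.05, 2 in all libraries, numbered 3 with the DESeq2 Wald test (Fgf18, Fgfr3 and Fgfr4, without Fgfr2) and 1 with DESeq2 size factors (Fgf18). Over all 15298 genes, 862 were higher and 1163 lower at that threshold with the Wald test, and 787 and 1105 with the size factors. Robust empirical Bayes gave 1 member (Fgfr2, without Fgf18), against 871 genes higher and 1000 lower. Keeping genes from 1 count upward gave 1 member (Fgf18), against 960 higher and 1156 lower of 18645 genes. With 1 Igf1r-deleted library left out the number of members was 0 to 3, beside the values over all genes given above. Members without overlap, 5 in all libraries, numbered 5 to 8 with 1 Igf1r-deleted library left out, with 8 when Igf1r-deleted replicate 1 was dropped. Leaving a library out can only keep or raise this count. The share over all genes without overlap is not given here for these cases, so the counts are no result about the members. Scaling by library totals gave 1343 genes higher and 744 lower at an unadjusted p under 0.05, against 865 and 1032 with TMM factors. Of the alternative share differences, 51 moved by less than the spread between libraries and 3 by more. These 3 were the CPM shares of Fgf2, Fgf9 and Fgfr2, a different measure that is not divided by exon length. Of the list medians, 105 stayed within that spread and 15 did not. Apart from that change of measure, the cause of these shifts was not tested. With 2 libraries against 3 no permutation p can fall below 0.1, and counting error limits Fgf9 most.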

Other observations

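Enzymes that build and trim heparan sulfate, the co-receptor of the FGFs, were all tested (17 genes). Of these, 9 were higher and 8 lower after Igf1r deletion (median log2 fold change 0.01), and none had an unadjusted p under 0.05 by edgeR's quasi-likelihood test. Hs2st1, which sulfates uronic acid residues of heparan sulfate, had control levels of 246 and 320 CPM and Igf1r-deleted levels of 342, 339 and 375 CPM, without overlap (log2 fold change 0.32, SE 0.14). Hs3st3a1, a 3-O-sulfotransferase, stood at 20.5 and 12.7 CPM in control mice and at 14, 10.03 and 9.96 CPM in Igf1r-deleted mice, and these groups overlapped. Ndst3, an N-deacetylase and sulfotransferase, measured 0.086 and 0.30 CPM in control libraries and 0.85, 0.33 and 0.67 CPM after Igf1r deletion. Ndst1, a related enzyme, had control levels of 400 and 456 CPM and Igf1r-deleted levels of 430, 395 and 376 CPM, with overlap.

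The 6 smooth muscle markers all had positive fold changes (median log2 fold change 0.39). They summed to 232 and 335 CPM in control libraries and to 365, 512 and 373 CPM after Igf1r deletion. At an unadjusted p under 0.05 there were 3 of them, Des, Actg2 and Smtn, against 5.65% of all genes on the higher side, and none passed with adjustment by edgeR's quasi-likelihood test. Smtn, which encodes smoothelin, stood at 63.9 and 88.8 CPM in control mice and at 101, 130 and 121 CPM in Igf1r-deleted mice. Of the 10 pericyte markers 5 were higher and 5 lower, with sums of 578 and 628 against 622, 624 and 547 CPM. Of the 12 endothelial markers 5 were higher and 7 lower, with sums of 637 and 623 against 584, 886 and 320 CPM. The 6 mesothelial markers had a median log2 fold change of −0.28, with 1 higher and 5 lower.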
